A study of Mus musculus with 16 samples.

Results

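The sterol ring arm is the closing stretch of cholesterol synthesis, in which the linear precursor squalene epoxide is folded into lanosterol and the ring system is trimmed and reduced to cholesterol. It was represented by 9 genes, matched by their exact symbols: Lss, Cyp51, Tm7sf2, Msmo1, Nsdhl, Hsd17b7, Ebp, Sc5d and Dhcr7. All 9 were found among the 25803 genes of the joined count tables, and all 9 passed the filter on low counts, which 14488 genes passed. Their mRNAs were measured by bulk RNA sequencing of liver from male mice given a high-fat diet (HFD) for 12 weeks. One genotype was Control, which the design text of the series calls WT, and the other was a liver knockout of Cpt1a (LKO). Livers were taken at the end of 16 h without food, or once 6 h of refeeding had followed such a fast, which gives fasted control, fasted LKO, refed control and refed LKO groups of 4 libraries each. All 4 groups therefore share the male sex and the diet. The Cre driver or other means of deletion, the age of the mice and whether each numbered sample is 1 animal are not given in the sources used here, so the p-values below measure the spread between these libraries.

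The enzymes of this arm sit in the endoplasmic reticulum and work in sequence on sterols bound in its membrane. Their genes are textbook targets of SREBP2, the transcription factor that is released from the endoplasmic reticulum when sterols there run low and held back by INSIG proteins when they are plentiful. The liver makes cholesterol for bile acids, lipoproteins and its own membranes, and synthesis in this organ rises after a meal and falls in a fast. Cpt1a encodes carnitine palmitoyltransferase 1A, which admits long-chain fatty acids to mitochondria for oxidation.

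In the order of the pathway, the first enzymes close the ring and open its trimming. Lss (ENSMUSG00000033105, chromosome 10 from 76367422 to 76392972, plus strand) encodes lanosterol synthase, the cyclase. Cyp51 (ENSMUSG00000001467, chromosome 5 from 4131145 to 4154746, minus strand) encodes the cytochrome P450 that demethylates lanosterol. Tm7sf2 (ENSMUSG00000024799, chromosome 19 from 6112851 to 6118403, minus strand) encodes a sterol reductase that saturates the double bond left by Cyp51, a reaction that the lamin B receptor Lbr also carries out. A demethylation complex then removes the remaining pair of methyl groups. Msmo1 (ENSMUSG00000031604, chromosome 8 from 65171173 to 65186826, minus strand) is its oxidase, Nsdhl (ENSMUSG00000031349, chromosome X from 71962163 to 72002120, plus strand) its decarboxylating dehydrogenase and Hsd17b7 (ENSMUSG00000026675, chromosome 1 from 169777104 to 169796810, minus strand) its ketone reductase. The last steps move and remove double bonds of the second ring. Ebp (ENSMUSG00000031168, chromosome X from 8051568 to 8059751, minus strand) is the sterol isomerase, Sc5d (ENSMUSG00000032018, chromosome 9 from 42162891 to 42175552, minus strand) the desaturase that introduces a double bond, and Dhcr7 (ENSMUSG00000058454, chromosome 7 from 143376882 to 143402147, plus strand) the reductase that yields cholesterol. All are listed as protein-coding, positions are those of the whole genes as the deposited tables give them, and mm39 is the build named in the submitters' processing notes. The tables place 166 bases of Cyp51 opposite Akap9 and 532 bases of Tm7sf2 within Vps51 on the same strand, and Lss opposite the transcript 4930483K19Rik, which averaged 0.026 CPM (read counts scaled to a common library total). Whether the counting used strand is not given in the sources used here.

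The start regions of the members are shown as a description of their sequence. RefSeq windows on GRCm38.p6, from 250 bases before to 50 bases after the start of each annotated transcript, were matched for 9 of the 9 members (11 windows, 3 of them for Dhcr7) and searched on both strands. CCAAT, the box bound by NF-Y, was found in 9 of the 9 members, against 41.1% of 27025 genes, and the GC box GGGCGG also in 9 of the 9, against 38.2%. The sterol regulatory element core TCACNCCAC was found in 0 of the 9 members and in 1.44% of all genes, which says only that these letters are not in these windows. The E-box CACGTG was found in 3 members (Hsd17b7, Sc5d and Dhcr7), against 8.09% of genes. A looser form of the element, TCACNNCA, was chosen after the windows had been seen. It was found in 6 members (Cyp51, Msmo1, Nsdhl, Hsd17b7, Sc5d and Dhcr7), against 15.7% of genes, and every TCACNCCAC match is also a TCACNNCA match. Stretches of 90 bases are printed 5′ to 3′ on the strand of the gene for 4 members with the looser element and for the 3 without it, Lss, Tm7sf2 and Ebp. Of these 3, Lss is among the members that rose on refeeding in LKO livers below, and Tm7sf2 and Ebp did not pass there. Of the 6 with the looser element, Hsd17b7 did not pass there either, and the others rose. A link between the element and the response was not tested. Capitals mark TCACNNCA and CCAAT on either strand, where ATTGG is CCAAT read on the other strand.
Cyp51, chr5:4104737-4104826, minus strand: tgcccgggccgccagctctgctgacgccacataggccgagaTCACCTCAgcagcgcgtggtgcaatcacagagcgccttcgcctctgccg
Msmo1, chr8:64733622-64733711, minus strand: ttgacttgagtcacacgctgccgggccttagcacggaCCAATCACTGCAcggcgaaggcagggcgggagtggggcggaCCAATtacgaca
Hsd17b7, chr1:169969274-169969363, minus strand: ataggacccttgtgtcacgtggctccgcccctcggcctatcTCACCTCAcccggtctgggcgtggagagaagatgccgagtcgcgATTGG
Dhcr7, chr7:143830124-143830213, plus strand: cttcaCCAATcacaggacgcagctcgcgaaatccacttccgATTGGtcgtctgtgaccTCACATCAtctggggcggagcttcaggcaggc
Lss, chr10:76531515-76531604, plus strand: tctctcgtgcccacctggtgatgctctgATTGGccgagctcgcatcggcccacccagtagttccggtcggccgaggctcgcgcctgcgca
Tm7sf2, chr19:6067851-6067940, minus strand: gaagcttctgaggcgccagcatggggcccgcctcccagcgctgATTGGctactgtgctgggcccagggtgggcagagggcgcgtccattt
Ebp, chrX:8193513-8193602, minus strand: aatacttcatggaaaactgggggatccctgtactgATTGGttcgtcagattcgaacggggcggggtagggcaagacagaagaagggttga
The looser element begins 88 bases before the start in Cyp51, 117 in Hsd17b7 and 32 in the Dhcr7 window shown. In Msmo1 it begins 92 bases before the start, where it shares a base with a CCAAT box, and again 177 bases before, outside the stretch shown. The CCAAT box of Cyp51 lies nearer the start, outside its stretch. These matches are descriptions of sequence, and no binding was measured.

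The deposited counts of a library summed to between 14721601 and 24618230, and a member had between 113 counts (Nsdhl in library S51) and 8265 counts (Sc5d in library S55). Cpt1a averaged 487 ± 83.2 CPM in fasted control and 101 ± 17.3 CPM in fasted LKO libraries, and in refed livers 457 ± 137 CPM in control and 54.2 ± 16.6 CPM in LKO libraries (SD, n = 4). It was thus 4.84-fold lower in fasted and 8.43-fold lower in refed LKO livers, with no overlap between the genotypes (exact two-sided permutation test, p = 0.0286 in each state, the smallest that 4 against 4 libraries can give). Hepatocyte markers were abundant throughout, with summed levels of 57680 to 89400 CPM for 8 genes, and every marker gene listed for 9 cell types had counts in some library. One library stands apart for the members. Refed control library S49 held the highest level of its group for 9 of the 9 members, from 1.31 times (Ebp) to 5.43 times (Msmo1) the mean of the other 3 refed controls. The same library had the highest sums of its group for the 8 macrophage markers, 736.7 against 186.7 to 457.8 CPM, of which Marco stood at 192.5 against 4.14 to 17.99 CPM, and for the hepatocyte markers, 89400 against 66290 to 80730 CPM. It was also highest of its group for the endothelial (202.5 CPM) and lymphocyte sums (6.37 CPM). For the cholangiocyte (30.2 CPM), stellate (195.0 CPM) and adipocyte sums (10.78 CPM) it was lowest. The part of these differences in the results below was not tested, and the differences that rest on refed controls are given with and without S49.

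Compared per length, the members spanned a wide range of levels in the fasted liver and a narrower one in the refed LKO liver. In fasted control libraries Ebp stood highest at 87.4 ± 4.60 CPM per kb of gene length, Sc5d followed at 34.4 ± 4.65 and Tm7sf2 at 17.8 ± 4.67 (SD, n = 4). These 3 did not overlap with each other or with the next member. Msmo1, Dhcr7, Hsd17b7, Cyp51 and Nsdhl lay between 4.59 ± 2.51 and 3.07 ± 0.777 CPM per kb, and each overlapped with its neighbour in the order. The cyclase Lss was lowest at 1.13 ± 0.148 CPM per kb, below every library of the others, so that the highest and the lowest mean differed 77.5-fold. In fasted LKO libraries this ratio was 55.9. There Hsd17b7 took the fourth place at 10.01 ± 2.35 CPM per kb, above Cyp51 at 6.59 ± 1.02, with no overlap between them. In refed control libraries the ratio was 34.8 (44.2 without S49). Ebp and Sc5d kept their separation from the rest, and the 7 others overlapped with their neighbours. Without S49, Tm7sf2 (7.38 to 12 CPM per kb) lay above the next member, Hsd17b7 (up to 5.97). Lss (up to 2.33) then lay below Nsdhl (2.69 or more), as in fasted control libraries. In refed LKO libraries the ratio was 12.5, with Ebp at 82.6 ± 12.8, Sc5d at 65.8 ± 11.8, Msmo1 at 38.1 ± 19.2, Dhcr7 at 18.8 ± 8.59 and Lss at 6.59 ± 2.76 CPM per kb. Here only Lss was separated from its neighbour, Hsd17b7 at 13.4 ± 3.34. In bulk liver, more mRNA per cell and more cells that hold the mRNA cannot be told apart, here or below.

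**Figure D1:**
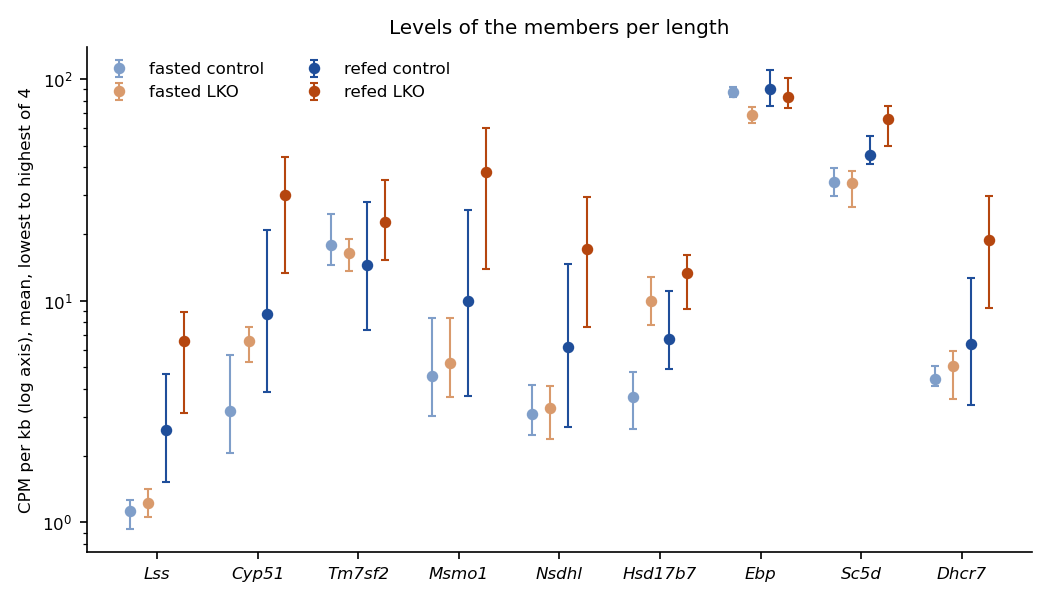
Mean level of each member in CPM per kb of gene length (log axis), in pathway order, for the 4 groups; bars run from the lowest to the highest of the 4 libraries. Ebp and Sc5d are the most abundant members in every group, and the distance from Ebp to Lss shrinks from 77.5-fold in fasted control to 12.5-fold in refed LKO libraries.

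The first comparison asked how the arm differs between the genotypes after a fast. Hsd17b7 was the member that rose in fasted LKO livers, and no other member was called by edgeR's quasi-likelihood test at a Benjamini-Hochberg adjusted p under 0.05 (1 of 9, beside 12.2% of all genes tested that were called and 5.75% that rose). Its levels were 13.5, 24.4, 20.5 and 16.4 CPM in fasted control libraries S40 to S43 and 56.5, 39.7, 65.4 and 42.8 CPM in fasted LKO libraries S44 to S47. Every LKO library lay above every control, an order that 8.3% of all genes tested showed. The ketone reductase was 2.73-fold higher, a log2 fold change of 1.45 (SE 0.27, edgeR adjusted p = 0.00278), and the call was kept without any 1 of the 16 libraries, with adjusted p-values from 0.000607 to 0.0122. In the authors' deposited table the gene has a log2 fold change of 1.44 and an adjusted p-value of 5.87e-09 for this comparison, with the sign turned to LKO over control.

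Cyp51 and Ebp had estimates of opposite sign that did not pass. Cyp51 read 9.04, 25.2, 10.8 and 11.4 CPM in the fasted controls and 33.6, 31.6, 27.7 and 23.4 CPM in the fasted LKO libraries. The other controls lay far below the LKO range while control library S41 lay within it. The log2 fold change was 1.046 (95% confidence interval −0.0021 to 2.09, edgeR adjusted p = 0.188), and in the authors' deposited table it is 1.035 with an adjusted p-value of 0.00521. The isomerase Ebp held 208, 193, 214 and 193 CPM in fasted control and 147, 173, 153 and 162 CPM in fasted LKO libraries. All 4 LKO libraries lay below all 4 controls, an order that 8.57% of all genes tested showed in this direction. The difference was small, −0.35 (SE 0.12, edgeR adjusted p = 0.0689). It passed with DESeq2 (adjusted p = 0.0437), in a fit of the fasted libraries alone (edgeR adjusted p = 0.0321) and without library S49 (edgeR adjusted p = 0.042) or S53 (0.0437), and it has an adjusted p-value of 0.00153 in the authors' deposited table.

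For the other 6 members the fasted genotypes overlapped. Lss ran over 10.03 to 13.6 CPM in controls and 11.4 to 15.3 CPM in LKO libraries, and Nsdhl over 7.10 to 11.9 and 6.78 to 11.7 CPM. Their log2 fold changes, 0.13 and 0.092, have intervals of −0.58 to 0.84 and −0.93 to 1.12. Msmo1 showed 18.6, 51.2, 22.3 and 20.6 CPM in controls and 25.8, 51.4, 28.3 and 22.7 CPM in LKO libraries, with 1 library of each group, S41 and S45, near 51 CPM and the others under 29 CPM. Tm7sf2 (−0.13, interval −0.83 to 0.58), Sc5d (−0.022, interval −0.34 to 0.30) and Dhcr7 (0.18, interval −0.60 to 0.96) did not pass either (edgeR adjusted p from 0.804 to 0.95 for these 6). The median log2 fold change of the 9 members was 0.13, beside 0.018 over all genes tested. Marker sums also differed between the fasted genotypes. The 8 hepatocyte markers summed to 70320 to 77210 CPM in control and 57680 to 66290 CPM in LKO libraries, with 2 of 8 called lower. The 6 adipocyte markers summed to 46.6 to 132.2 CPM in control and 153.4 to 354.6 CPM in LKO libraries, and of the 2 that passed the filter 1 was called higher and 1 lower. Their part in the differences of Hsd17b7 and Ebp was not tested.

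**Figure D2:**
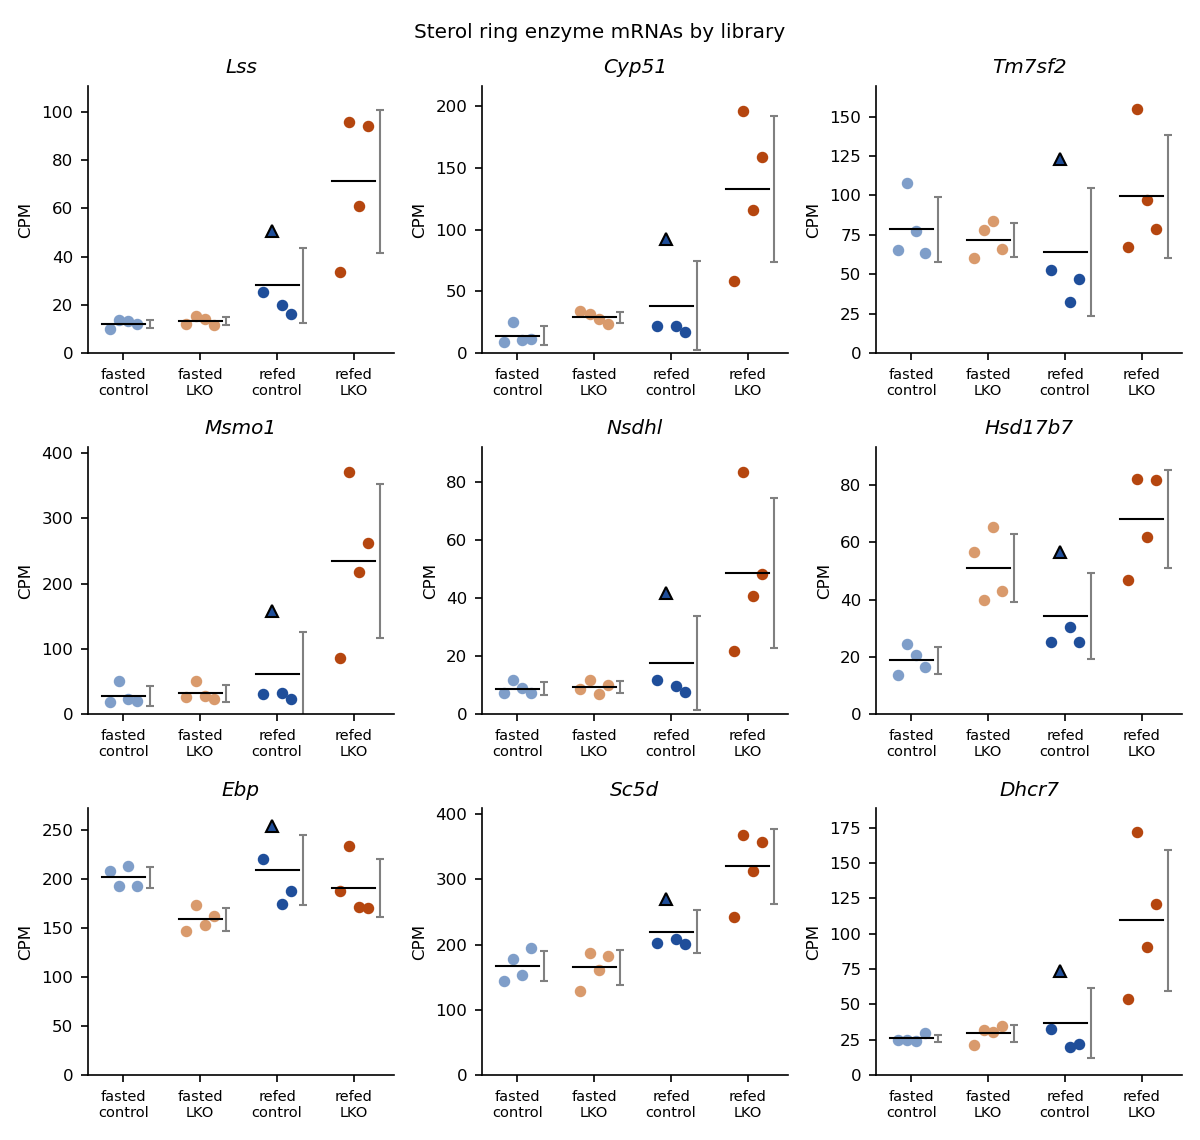
Level of each member in CPM in every library, by group; horizontal lines are group means and grey bars 1 SD (n = 4), cut off at 0 where they would pass below it, and the triangle is refed control library S49. Hsd17b7 is separated between the genotypes in the fasted state, and for 8 members all refed LKO libraries lie above the 3 refed controls drawn as circles.

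The second comparison asked the same after refeeding. Of the 9 members 8 had higher mean levels in refed LKO than in refed control livers, and Lss, Hsd17b7 and Dhcr7 rose by the test (3 of 9, beside 3.63% of all genes tested that were called and 2.28% that rose). The median log2 fold change of the members was 1.34, beside −0.013 over all genes tested. For each of the 9 members the refed genotypes overlapped, and in 8 of them the overlap came from control library S49 alone.

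Lss measured 25.2, 50.6, 19.98 and 16.4 CPM in refed control libraries S48 to S51 and 33.7, 95.95, 60.8 and 94.1 CPM in refed LKO libraries S52 to S55. Library S49 exceeded S52, the lowest LKO library, and no other control did. The cyclase was 2.53-fold higher in LKO livers (log2 1.34, SE 0.32, edgeR adjusted p = 0.0304). Dhcr7, the last reductase, stood at 32.9, 73.4, 19.8 and 21.99 CPM in the controls and 53.9, 172, 90.9 and 121 CPM in the LKO libraries. The pattern was the same, with S49 above S52 and the other controls below every LKO library. It was 2.96-fold higher (log2 1.56, SE 0.37, edgeR adjusted p = 0.028). Hsd17b7 read 25.2, 56.5, 30.5 and 25.2 CPM in the controls and 46.9, 82.2, 61.98 and 81.8 CPM in the LKO libraries. Its difference was 0.99 (SE 0.26, edgeR adjusted p = 0.0479), in the same direction as in the fasted state.

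Cyp51 and Msmo1 had the largest estimates of the arm and did not pass, and Nsdhl did not pass either. Cyp51 had 22.2, 92.4, 22.1 and 17.1 CPM in refed control and 58.7, 196, 116 and 159 CPM in refed LKO libraries. Its log2 fold change was 1.78 (SE 0.48, edgeR adjusted p = 0.0508). Msmo1, the oxidase of the demethylation complex, had 31.3, 158, 32.8 and 22.9 CPM in the controls and 85.7, 371, 218 and 262 CPM in the LKO libraries, the highest ratio of highest to lowest library of any member in both groups. Its log2 fold change was 1.93 (SE 0.57, edgeR adjusted p = 0.0687). Nsdhl had 11.7, 41.96, 9.55 and 7.67 CPM in the controls and 21.8, 83.7, 40.8 and 48.3 CPM in the LKO libraries, a log2 fold change of 1.45 (SE 0.46, edgeR adjusted p = 0.0895). For Cyp51 and Msmo1 library S49 exceeded 1 LKO library and for Nsdhl it exceeded S52 and S54, while the other controls lay below every LKO library.

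The desaturase Sc5d differed less in proportion. It held 202, 269, 208 and 201 CPM in the controls and 242, 368, 313 and 358 CPM in the LKO libraries, a log2 fold change of 0.54 (SE 0.15, edgeR adjusted p = 0.0553). Tm7sf2 had 52.96, 123, 32.5 and 47.04 CPM in the controls and 66.98, 155, 96.8 and 78.9 CPM in the LKO libraries, with S49 above 3 of the 4 LKO libraries, and a log2 fold change of 0.63 (95% interval −0.072 to 1.34, edgeR adjusted p = 0.333). For Ebp the estimate was below 0. The isomerase read 219.8, 254, 175 and 188 CPM in the controls and 188, 233, 172 and 170.2 CPM in the LKO libraries, and the interval of its log2 fold change, −0.38 to 0.12 around −0.13, has its upper end at 0.12, or at 0.22 without S49 (edgeR adjusted p = 0.616).

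How many members passed in the refed state depended on single libraries. Without S49 the test called 8 of the 9, all but Ebp, beside 2.68% of 14749 genes tested. The log2 fold changes were then 1.79 for Lss, 2.69 for Cyp51, 1.17 for Tm7sf2, 3.01 for Msmo1, 2.33 for Nsdhl, 1.34 for Hsd17b7, 0.65 for Sc5d and 2.14 for Dhcr7 (edgeR adjusted p from 0.00206 to 0.0327), and −0.023 for Ebp (edgeR adjusted p = 0.947). Against the other 3 controls, all 4 LKO libraries were higher for those 8 members, an order that 8.9% of all genes tested showed. In the other direction, 0 members were called when control library S48, S50 or S51 or LKO library S53 or S55 was left out, and 6 without S52. Calls over all genes, 526 with every library, numbered 197 without S48, 300 without S50, 517 without S51, 300 without S53, 225 without S55, 440 without S52 and 395 without S49. The edgeR adjusted p-values then reached 0.0944 for Lss and 0.0909 for Dhcr7. The call of Hsd17b7 was also lost without S41, S42, S43, S44 or S54, with edgeR adjusted p-values over the 16 fits from 0.0061 to 0.139. DESeq2 and limma-voom each called 6 members, and a fit of the refed libraries alone called 0. In the authors' deposited table for this comparison, Hsd17b7 (adjusted p-value 0.00691) and Sc5d (0.0142) lie under 0.05, and Lss (0.0968) and Dhcr7 (0.0692) do not.

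**Figure D3:**
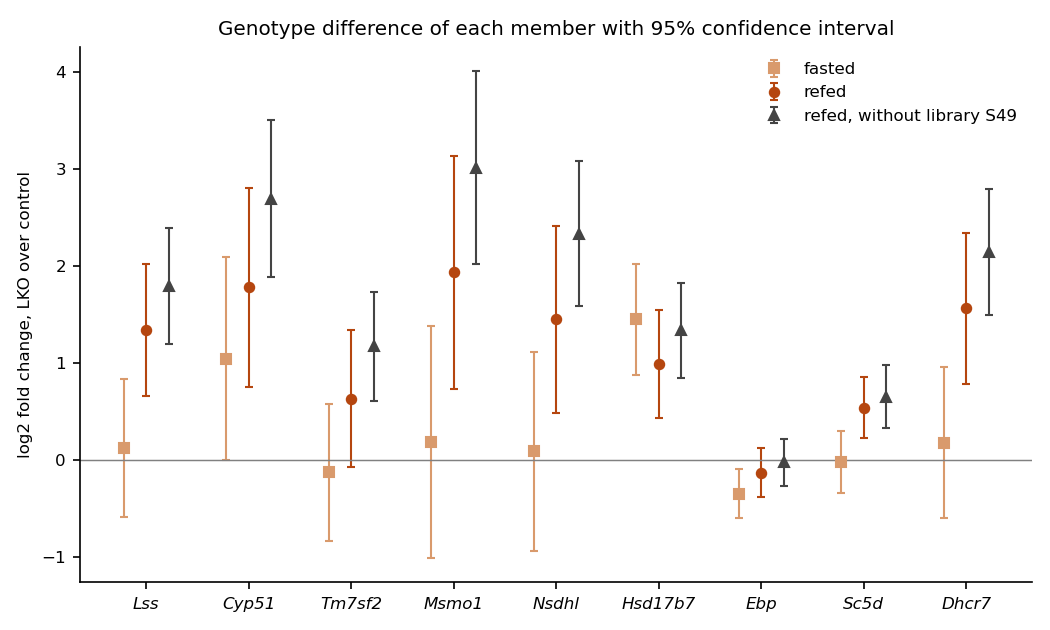
Log2 fold change of LKO over control for each member with its 95% confidence interval, in the fasted state, in the refed state, and in the refed state without library S49. Fasted estimates other than Hsd17b7, Cyp51 and Ebp lie near 0; refed estimates of 8 members are positive and are larger without S49, up to 3.01 for Msmo1.

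The third question was how the fasted and the refed state differ within each genotype. In LKO livers 6 of the 9 members rose between the fasted and the refed state, beside 18.1% of all genes tested that were called and 9.28% that rose. Msmo1 went from a mean of 32.03 ± 13.1 to 234 ± 118 CPM, 7.31-fold (log2 2.87, SE 0.59, edgeR adjusted p = 0.00322). Lss went from 13.3 ± 1.79 to 71.1 ± 29.7 CPM, 5.36-fold (log2 2.42, SE 0.34, edgeR adjusted p = 0.000196). Nsdhl rose 5.20-fold, Cyp51 4.55-fold, Dhcr7 3.73-fold and Sc5d 1.94-fold (edgeR adjusted p from 0.000496 to 0.00564). For each of these 6 the refed LKO libraries all lay above the fasted LKO libraries, an order that 10.6% of all genes tested showed. The 3 members that did not pass were Tm7sf2 (log2 0.46, interval −0.24 to 1.17), Hsd17b7 (0.42, interval −0.13 to 0.96) and Ebp (0.27, interval 0.013 to 0.52), with edgeR adjusted p-values of 0.372, 0.298 and 0.139. Tm7sf2, Hsd17b7 and Ebp were, with Sc5d, the 4 most abundant members per length in the fasted LKO liver, and these 4 had the 4 smallest fold changes. The fasted LKO level is also the base of these fold changes, so the orders are not independent. Hsd17b7 stood at 10.01 CPM per kb in fasted LKO and 3.67 in fasted control libraries. The 6 calls were kept without any 1 of the 16 libraries.

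In control livers Lss and Hsd17b7 rose with refeeding. Lss went from 12.2 ± 1.60 to 28.03 ± 15.5 CPM (2.31-fold, log2 1.21, SE 0.33, edgeR adjusted p = 0.0218) and Hsd17b7 from 18.7 ± 4.76 to 34.4 ± 14.98 CPM (1.84-fold, log2 0.88, SE 0.27, edgeR adjusted p = 0.0355). These were 2 of 9, beside 15.4% of all genes tested that were called and 7.79% that rose. For both, the refed controls lay wholly above the fasted ones, an order that 10.4% of all genes tested showed, and so did they for Sc5d (log2 0.39, edgeR adjusted p = 0.0864). Cyp51 (1.45), Msmo1 (1.12), Nsdhl (1.02) and Dhcr7 (0.52) had positive log2 fold changes that did not pass (edgeR adjusted p from 0.0573 to 0.371), and Tm7sf2 a negative one (−0.30, edgeR adjusted p = 0.591). Cyp51 passed with DESeq2 (adjusted p = 0.0432) and in edgeR on genes with a mean of at least 5 CPM (adjusted p = 0.0499). The median of the members was 0.88 with S49 and 0.14 without it. Without S49 the log2 fold changes were 0.54 for Cyp51, 0.045 for Msmo1, 0.28 for Sc5d, −0.057 for Ebp and −0.061 for Dhcr7. Lss (0.76, edgeR adjusted p = 0.0845) and Hsd17b7 (0.53, edgeR adjusted p = 0.136) no longer passed then. Tm7sf2 was then the called member, and it fell (−0.83, edgeR adjusted p = 0.0494, beside 12.2% of all genes tested). Lss was also lost without S40 or S43, and Hsd17b7 without S40, S42, S43 or S50. Thus 0 members were called without S40 or S43, while 3 were called without S41, S51 or S52. Calls over all genes, 2238 with every library, numbered 1220 without S40, 1499 without S43, 1965 without S41, 2483 without S51 and 2181 without S52.

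Whether the genotype difference itself changed between the states was tested as an interaction. The estimate was positive for 8 members, with a median of 0.76 beside −0.014 over all genes tested, and 0 of the 9 passed in edgeR, beside 0.538% of all genes tested. The lowest edgeR adjusted p was 0.189 (Dhcr7, 1.38, SE 0.52). At an unadjusted p under 0.05 in edgeR there were 4 members, beside 2397 of all 14488 genes tested. DESeq2 and limma-voom also called 0 members, while over all genes they called 467 and 80 against 78 in edgeR. Msmo1 had the largest estimate, 1.75 (interval 0.070 to 3.43, edgeR adjusted p = 0.279), and Hsd17b7 the only negative one, −0.46 (interval −1.25 to 0.32, edgeR adjusted p = 0.565). Without S49 the interaction passed for Lss (1.67), Msmo1 (2.83), Nsdhl (2.24) and Dhcr7 (1.96), beside 1.91% of all genes tested (edgeR adjusted p from 0.0331 to 0.039), and 0 members passed when any other library was left out. The estimates of Cyp51 (1.65), Tm7sf2 (1.30), Hsd17b7 (−0.11), Ebp (0.32) and Sc5d (0.68) did not pass without S49 either.

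The members varied together across the libraries. In the refed LKO group library S53 was highest for 9 of the 9 members and S52 lowest for 8, and in the refed control group S49 was highest for 9. In the fasted groups the order was looser, with S41 highest for 6 members among the controls and S45 for 5 among the LKO libraries. With each group's mean removed, the 36 pairs of members correlated over the 16 libraries at a median Pearson's r of 0.77. The range ran from 0.26 (Ebp with Hsd17b7) to 0.96 (Cyp51 with Msmo1), and by member the median ran from 0.54 for Ebp to 0.87 for Nsdhl. By Spearman's rho the Ebp and Hsd17b7 pair stood at 0.0 and the Cyp51 and Msmo1 pair at 0.95. All these values include S49, which lay 1.09 log2 units above its group mean, averaged over the members. They were not computed without S49 or for pairs of other genes. They share libraries, depth and scaling, and are descriptions.

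**Figure D4:**
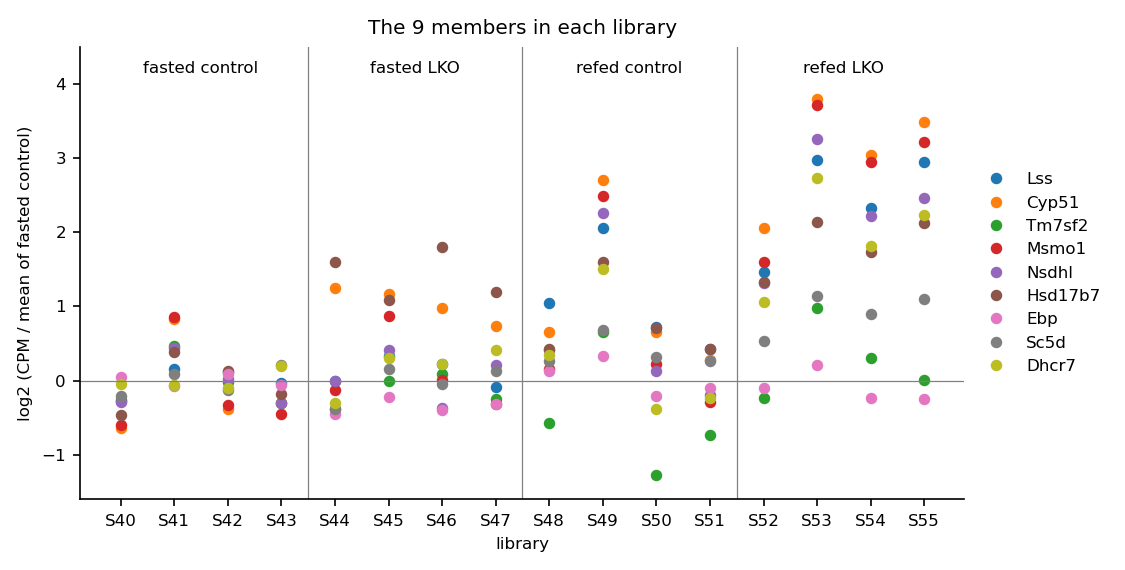
Level of the 9 members in each of the 16 libraries, as log2 of CPM over the member's mean in fasted control. The members shift together in refed control library S49 and in the refed LKO libraries, lowest in S52 and highest in S53, while Ebp stays near 0 and Hsd17b7 and Cyp51 lie above 0 in the fasted LKO libraries.

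The genes whose log2 CPM over the 16 libraries was most like the mean of the members were drawn from 9335 genes with a mean of at least 5 CPM. In order of Pearson's r, from 0.96 to 0.95, those most like it included Gm3571, Srebf2, Idi1, Mvk, Sqle, Fdft1, Mvd and Pmvk. Gm3571 is listed as a processed pseudogene, so its counts are uncertain where another gene is near-identical. Idi1, Mvk, Sqle, Fdft1, Mvd and Pmvk belong to the mevalonate arm, which supplies squalene epoxide to Lss, and Srebf2 encodes SREBP2 itself. The 3 least like were Tifa (r −0.92), Numa1 (−0.91) and Clstn3 (−0.88). Without S49 the 8 named genes had r from 0.94 to 0.96 and the last 3 from −0.91 to −0.86. Spearman's rho of the 8 ran from 0.79 (Mvk) to 0.93 (Srebf2) over the 16 libraries, all of which share the group differences described above.

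Among the 3 ring companions, genes that work beside the arm, 1 rose between the refed genotypes, beside 2.28% of all genes tested. Erg28, which tethers the demethylation enzymes, rose in refed LKO against refed control livers (0.76, edgeR adjusted p = 0.0457), a call kept in 4 of the 16 fits that each left out a library (those without S44, S46, S49 or S52). DESeq2 also called it, limma-voom called 0 of the 3, and without S49 its log2 fold change was 0.97 (edgeR adjusted p = 0.0127). Lbr, the reductase that shares the reaction of Tm7sf2, had 0.48 (edgeR adjusted p = 0.252), and 0.62 without S49 (adjusted p = 0.165). Both rose on refeeding in LKO livers, by 1.201 for Lbr and 0.75 for Erg28 (edgeR adjusted p from 0.00174 to 0.0168; Erg28 up to 0.0636 without S44 or S53). Lbr rose in control livers (0.84, edgeR adjusted p = 0.0218), but not without S40, S41, S49 or S50 (up to 0.0795; 0.69 without S49). Per length Lbr reached 1.13 ± 0.0843 and Tm7sf2 22.6 ± 8.84 CPM per kb in refed LKO libraries.

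Of the 11 genes of the mevalonate arm, 4 rose in refed LKO against refed control livers, beside 2.28% of all genes tested, and 10 had positive estimates. Those that rose were Hmgcs1, the synthase at its entry (2.15, edgeR adjusted p = 0.0143), Sqle, which makes the epoxide that Lss folds (2.64, adjusted p = 0.044), Mvk, mevalonate kinase (1.62, adjusted p = 0.0307), and Fdft1, squalene synthase (1.18, adjusted p = 0.0423). Idi1, the isomerase of the isoprene units, had 2.27 (edgeR adjusted p = 0.0544). Without S49, 10 of the 11 rose, beside 1.63% of all genes tested. The log2 fold changes were then 2.73 for Hmgcs1, 4.39 for Sqle, 2.21 for Mvk, 1.51 for Fdft1 and 3.92 for Idi1 (edgeR adjusted p from 0.000558 to 0.0123). DESeq2 and limma-voom each called 7 with all libraries. Without S48 none of the 4 passed, and Hmgcs1 was lost there only (edgeR adjusted p = 0.0555). Mvk, Fdft1 and Sqle were also lost without S50, S51, S53, S54 or S55, Fdft1 and Sqle without S40, S42 or S43, and Sqle without S46 (edgeR adjusted p up to 0.139). In the fasted state edgeR, DESeq2 and limma-voom called 0 of the 11. An unadjusted p under 0.05 in edgeR was held by 0 of the 11, beside 3868 of all 14488 genes tested. On refeeding in LKO livers 10 of the 11 rose, beside 9.28% of all genes tested, among them Acat2 (1.19), Hmgcs1 (1.88), Mvk (2.19), Pmvk (1.39), Mvd (2.96), Idi1 (3.90), Fdps (3.71), Fdft1 (1.63) and Sqle (3.19), with edgeR adjusted p-values from 0.000823 to 0.0143 for those named. Of these calls Pmvk was lost without S53 (0.0537). The large fold changes of Fdps and Idi1 start from low levels. Fdps averaged 0.73 ± 0.49 CPM in fasted LKO and 9.74 ± 5.20 CPM in refed LKO libraries, and Idi1 2.58 ± 0.49 and 38.8 ± 19.0 CPM (SD, n = 4). Ggps1, which leads away from sterols, did not pass on refeeding (−0.14, edgeR adjusted p = 0.669). In control livers Idi1 was the called gene, 1 of 11 beside 7.79% that rose over all genes tested (2.35, edgeR adjusted p = 0.0431, and 0.71 without S49). Limma-voom called 0 of the 11 there, and the edgeR call was lost in 9 of the 16 fits that left out a library, those without S40, S42, S43, S44, S45, S46, S49, S54 or S55 (edgeR adjusted p up to 0.376).

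Among 12 genes of the SREBP2 control system, edgeR, DESeq2 and limma-voom called 0 between the refed genotypes. There 3 of the 12 had an unadjusted p under 0.05 in edgeR, beside 2672 of all 14488 genes tested. Srebf2 had a log2 fold change of 0.44 (edgeR adjusted p = 0.242), Insig1, which retains SREBP2 in the endoplasmic reticulum, 0.70 (adjusted p = 0.372) and Stard4, a sterol carrier, 0.74 (adjusted p = 0.134). Without S49, 2 of the 12 rose, beside 1.63% of all genes tested. Srebf2 was among them (0.69, edgeR adjusted p = 0.0457), while Insig1 (1.24, adjusted p = 0.079) and Stard4 (0.92, adjusted p = 0.0892) were not. On refeeding in LKO livers 5 of the 12 rose and 1 fell, beside 18.1% of all genes tested that were called. Srebf2 (0.82), Insig1 (2.04) and Stard4 (1.29) rose and Insig2 fell (−1.37), with edgeR adjusted p-values from 0.00287 to 0.00914. In control livers Insig1 rose (1.36, edgeR adjusted p = 0.0331, and 0.82, adjusted p = 0.139, without S49; it was also lost without S40, S42, S43 or S48 and with limma-voom). Scap, the escort of SREBP proteins, fell there (−0.62, edgeR adjusted p = 0.00235, and −0.54 without S49). These were 2 of 12, beside 15.4% of all genes tested. In the fasted state Mbtps2, a protease that releases SREBP proteins, was the 1 of the 12 called, beside 12.2% of all genes tested, and was higher in LKO livers (0.53, edgeR adjusted p = 0.042), a call lost in 10 of the 16 fits that left out a library, those without S40, S41, S42, S43, S44, S47, S48, S50, S54 or S55 (up to 0.149).

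A further 5 genes were listed around cytochrome P450 and cytochrome b5 electron transfer. Of these, 1 was called in the fasted genotype comparison and 1 on refeeding in each genotype, beside 12.2%, 15.4% and 18.1% of all genes tested. Por, the reductase of cytochrome P450 enzymes, had log2 fold changes of −0.29 and −0.30 between the fasted and the refed genotypes (edgeR adjusted p = 0.504 and 0.571; the refed value was −0.24 without S49). Cyb5r3, which reduces cytochrome b5, was lower in fasted LKO livers (−0.76, edgeR adjusted p = 0.00322) and fell on refeeding in control livers (−0.54, adjusted p = 0.0188, and up to 0.0672 without S40 or S50; −0.60 without S49). Cyb5b, a cytochrome b5 gene, rose on refeeding in LKO livers (0.76, edgeR adjusted p = 0.0013). In control livers Cyb5b had 0.41 (edgeR adjusted p = 0.0503, and 0.32 with adjusted p = 0.147 without S49). DESeq2 and limma-voom each called 2 of the 5 genes on refeeding in control livers. Between the refed genotypes edgeR, DESeq2 and limma-voom called 0 of these 5 genes. An unadjusted p under 0.05 in edgeR was held by 0 of the 5, beside 2672 of all 14488 genes tested.

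Between the fasted genotypes 1 of 8 targets of LXR and 3 of 10 tested genes of cholesterol use were called, beside 12.2% of all genes tested. Of the targets of LXR, the nuclear receptor for oxysterols, Srebf1, which encodes the lipogenic SREBP1, was lower in fasted LKO livers (−2.25, edgeR adjusted p = 0.000238) and rose on refeeding in control (1.045, adjusted p = 0.0159) and LKO livers (2.61, adjusted p = 3.32e-05). Lpcat3, a phospholipid acyltransferase, fell on refeeding in both (−0.55 and −1.12, edgeR adjusted p = 0.0189 and 0.000116). In control livers the call of Srebf1 was lost without S48 (0.0615) and that of Lpcat3 without S40, S48, S49 or S50 (up to 0.069), with values of 0.98 and −0.48 without S49. Of the genes of cholesterol use, Lipa, the lysosomal lipase (0.96, edgeR adjusted p = 0.000238), and the ester hydrolase Nceh1 (1.29, adjusted p = 0.00583) were higher in fasted LKO livers, and the hydroxylase Cyp46a1 was lower (−1.37, adjusted p = 0.0118). Lipa rose on refeeding in control livers (0.41, edgeR adjusted p = 0.0267) and fell in LKO livers (−0.53, adjusted p = 0.00512), and its interaction passed (−0.94, adjusted p = 0.0261). Without S40, S48 or S50 neither the rise in controls nor the interaction passed, without S42 or S43 the rise did not, and without S55 the interaction did not (edgeR adjusted p up to 0.0844), and without S49 both passed (0.42 and −0.95). Nceh1 (−1.17) and Npc1, the lysosomal cholesterol exporter (−0.72), fell on refeeding in LKO livers (edgeR adjusted p = 0.00664 and 0.00777). Between the refed genotypes edgeR and limma-voom called 0 genes of these lists and DESeq2 1 of cholesterol use. At an unadjusted p under 0.05 in edgeR there were 2 of each list, beside 2672 of all 14488 genes tested. The 2 largest refed estimates were −0.69 (Srebf1, edgeR adjusted p = 0.169, and −0.63 without S49) and −0.40 (Abcg1, adjusted p = 0.261, and −0.24 without S49) for LXR targets, and −1.20 (Cyp46a1, adjusted p = 0.0544, and −1.38 with adjusted p = 0.0359 without S49) and −0.67 (Cyp7a1, the rate-limiting enzyme of bile acid synthesis, adjusted p = 0.48, and −0.39 without S49) for cholesterol use.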

How the data were processed

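Liver poly-A RNA of 16 samples was sequenced from libraries built with random hexamers and dUTP, per the labels' protocols. HISAT2 2.0.5 and mm39 are named in the submitters' processing notes. The counting tool, its annotation and its use of strand are not given in the sources used here. Raw counts of reads on each gene were deposited by the authors in 4 tables of 8 libraries, with their own log2 fold changes and p-values, whose sign was turned here where quoted, and with gene lengths. The counts have no molecular identifiers, and intervals cover the spread between libraries. Columns S40 to S55 were mapped to groups by the heading that a pair of tables shares. A further 64 per-library columns were not used. Joining gave 25803 genes. In a library whose tables both lacked a gene, it was set to 0 (3148 genes), and 0 counts differed between tables.

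Counts were fitted with edgeR 4.0.16 in R 4.3.3: filterByExpr, TMM factors from 0.941 to 1.07, glmQLFit on the 4 groups with a shared spread (biological coefficient of variation 0.185), glmQLFTest, and Benjamini-Hochberg adjustment over all genes tested. The SE is the log2 fold change over the square root of F. CPM use TMM-scaled totals, log2 CPM a prior count of 2. Lowest chi-square per degree of freedom between libraries of a group was 15.5, more than counting noise between sequencing runs of the same library would give. It cannot tell whether libraries came from the same animal. Alternatives were RLE and upper quartile scaling, no filter, a mean of at least 5 CPM, DESeq2 1.42.0, limma-voom (limma 3.58.1), the compared groups alone, and each library left out. The fit was tested on simulated data. The named genes were Cpt1a, the 9 members, of each companion list the called genes and the 2 largest refed differences, Srebf2 and Insig1, and the 10 most and 3 least similar genes; some genes that this rule names are not reported here. Members, lists and tests were chosen with earlier results of these data known, and the TCACNNCA pattern after seeing the windows.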

Additional observations from a re-analysis of the deposited data

Results flagged for a closer look

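Among 40 sets of 4 libraries (10 genes in 4 groups), 7 held a library whose gap to the nearest other library took up more of the range of its group than Dixon's 95% critical value allows, a limit that chance passes in about 1 group in 20. Refed control library S49 accounted for 5 of them. It stood at 92.4 CPM for Cyp51 (next library 22.2), 157.6 CPM for Msmo1 (next 32.8), 41.96 CPM for Nsdhl (next 11.7), 56.5 CPM for Hsd17b7 (next 30.5) and 269.2 CPM for Sc5d (next 208.2). Fasted control library S41 accounted for the rest, with 25.1 CPM for Cyp51 (next 11.4) and 51.2 CPM for Msmo1 (next 22.3). The members correlate, so these flags are not independent. S41 was the highest fasted control for 6 of the 9 members, and without it the fasted log2 fold change of Cyp51 was the highest of the 16 fits, 1.48.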

How the results depend on the processing

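The 6 members called on refeeding in LKO livers numbered 6 under all 7 alternative settings and in all 16 fits that left out a library. In the fasted genotype comparison 1 member was called, 2 with DESeq2 and 2 in a fit of the compared groups alone, and 1 to 2 when a library was left out. In the refed genotype comparison 3 were called, 6 with DESeq2, 6 with limma-voom and 0 with the compared groups alone, and 0 to 8 when a library was left out. On refeeding in control livers 2 were called, 3 with DESeq2, 1 with limma-voom and 1 with the compared groups alone, and 0 to 3 when a library was left out. Cyp51 also passed there with a mean of at least 5 CPM. For the interaction 0 were called, and 0 to 4 when a library was left out. Medians of the members when a library was left out ran from −0.044 to 0.19 (fasted genotypes), 1.06 to 1.79 (refed genotypes), 0.14 to 1.04 (refeeding, control), 1.60 to 2.13 (refeeding, LKO) and 0.49 to 1.65 (interaction), and Cpt1a from −2.40 to −2.21 and from −3.27 to −2.89. Directions turned for uncalled members in 8 cases, over 5 such fits. Between the fasted genotypes these were Tm7sf2 (0.066 without S41, down to −0.22 in the other fits), Sc5d (0.0068 without S41, 0.056 without S43, 0.080 without S44, down to −0.096), Msmo1 (−0.15 without S45, up to 0.64) and Nsdhl (−0.044 without S45, up to 0.27). On refeeding in control livers these were Ebp (−0.057, up to 0.13 in the other fits) and Dhcr7 (−0.061, up to 0.73), both without S49. Over all genes, DESeq2 called 924 between the refed genotypes against 526, and for the interaction 467 against 78, where a mean of at least 5 CPM called 195. Leaving out a library gave 1048 to 1985 (fasted genotypes, 1772 with all), 197 to 601 (refed genotypes), 1220 to 2483 (refeeding, control, 2238 with all) and 8 to 282 (interaction). Upper quartile scaling moved the share of interaction calls that were higher from 57.7% to 39.8%. The cause of these changes was not tested. No paired analysis was possible because the columns carry no replicate number.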
